A study of Mus musculus with 46 samples.

Results

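The miRNAs mmu-miR-142-5p, mmu-miR-150 and mmu-miR-155 are made mainly by white blood cells, and their level in a piece of tissue is often read as a sign of immune cells. They were followed, by name, over mouse mammary tumors and normal mammary gland, together with 2 further leukocyte miRNAs that were sought in the same table, mmu-miR-142-3p and mmu-miR-223. The array table held 4 of these 5 names among its 334 miRNAs. mmu-miR-142-3p was not analysed here.

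miRNAs are short RNAs that bind partly complementary sites in messenger RNAs, chiefly through the bases near their 5′ end called the seed, and lower the output of those messages. miR-142 is made in nearly all cells of the blood lineage and hardly outside it. miR-150 is abundant in mature resting lymphocytes and restrains the transcription factor c-Myb, miR-155 is cut from the Bic transcript and is induced in activated lymphocytes and macrophages, and miR-223 is the main miRNA of neutrophils and other myeloid cells. In a whole-tissue extract, fewer cells of a type and less RNA per cell cannot be told apart.

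The mature sequences below are shown because the seed decides which messages a miRNA can pair with, and because they let a reader see that the leukocyte miRNAs are not variants of 1 family. The capitals mark the seed, bases 2 to 8 counted from the 5′ end. The sequences are those of RefSeq on GRCm38.p6, where the entries are named mmu-miR-142a-5p, mmu-miR-155-5p and mmu-miR-223-3p, and 3 of the 4 measured names had a match.
miR-142-5p: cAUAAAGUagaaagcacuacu
miR-155: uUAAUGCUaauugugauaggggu
miR-223: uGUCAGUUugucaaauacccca
In that table miR-142-5p lies at chr11:87756867-87756887, miR-155 at chr16:84714143-84714165 and miR-223 at chrX:96242884-96242905, each on the plus strand. None of the 3 seeds is shared with another of the 1679 mature names in the table. They are 21, 23 and 22 bases long. miR-150 is named only.

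The study profiled primary mammary tumors of single mice from 8 genetically engineered models, and normal gland, on a 1-colour array with 4 spots per miRNA. There were 46 arrays, of 41 tumors and 5 normal glands. The study places 3 models in a basal class (17 tumors) and 5 in a luminal class (24 tumors), and compares these classes. The class of a model comes from the study and not from the sample labels.

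The basal class held 5 C3TAg tumors (FVB mice carrying viral T antigens under a prostate steroid binding protein promoter that is active in mammary ductal cells), 7 p53-/- tumors (Balb/C, floxed p53 removed by MMTV-cre, grown as transplants) and 5 Brca1-/-p53+/- tumors (129B6/FVB, floxed Brca1 removed by MMTV-cre in mice with 1 functional p53 allele). The luminal class held 4 MMTV-C-Myc, 5 MMTV-H2N (Her2/neu), 5 MMTV-Hras, 4 MMTV-Wnt and 6 MMTV-PymT (polyoma middle T) tumors, all in FVB mice. The 5 normal glands came from pregnant FVB mice, whose glands are rich in epithelium. The labels do not say whether each gland came from a different mouse, and the tests take the 5 arrays as independent. The MMTV promoter is often active outside the mammary gland as well, lymphoid cells included, and its activity in the leukocytes of these tumors was not measured. The p53-/- transplants grew in host mice, whose own leukocytes can enter them. Strain cannot be told apart from model in the p53-/- and Brca1-/-p53+/- tumors, nor can transplantation in the p53-/- tumors.

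Arrays differed strongly in brightness, and this bears on every comparison. The floor of an array, taken as the 5th percentile of all its spots, was 92.7 to 241 in C3TAg, 61.4 to 114 in p53-/- and 20.5 to 147 elsewhere. The middle miRNA of an array stood only 1.06 to 1.45 times above the floor in C3TAg and 1.31 to 1.78 times in p53-/-, against 3.43 to 56.5 times in the other groups. A miRNA is called above the floor here if its signal passed 3 times the floor, and 31 to 85 miRNAs did so on a C3TAg array, 91 to 111 on a p53-/- array and 168 to 304 on the others. The values compared between groups are log2 signal minus the median of the array (scaled values), and on C3TAg and p53-/- arrays that median lies near the floor. The 4 spots of a miRNA differed by a median SD of 0.19 for miR-142-5p, 0.31 for miR-150, 0.25 for miR-155 and 0.23 for miR-223 on the log2 scale.

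miR-142-5p was bright in the luminal models and at the floor in 2 of the basal models. Its signal (the geometric mean of the 4 spots, in arbitrary intensity units) was 1703, 2460, 1718 and 2395 on the 4 MMTV-C-Myc arrays. On the MMTV-Wnt arrays it was 27423, 7997, 25027 and 2109. These are the groups with the highest scaled means, and each of these tumors was brighter than every normal gland (353, 330, 563, 660 and 867). Here and below, the share of all miRNAs whose signals separate 2 groups without overlap was not counted.

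The other luminal models were more spread. MMTV-Hras tumors gave miR-142-5p signals of 767, 779, 4659, 1922 and 2869, and MMTV-H2N tumors 285, 1080, 2302, 601 and 734. In MMTV-PymT the lowest of the 6 signals was 378, the median 3427 and the highest 25312. The signals of all 3 models overlapped those of normal gland.

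C3TAg tumors gave miR-142-5p signals of 163, 118, 294, 148 and 98.9, which is 1.07 to 1.39 times the floor. The 7 p53-/- signals ran from 73.7 through a median of 88.5 to 193, or 1.02 to 1.70 times the floor. Not one of these 12 arrays measured miR-142-5p above 3 times the floor, so their values are bounds. The Brca1-/-p53+/- tumors differed, with 870, 304, 522, 2750 and 236, and 4 of the 5 were above 3 times the floor. In all, miR-142-5p was above it on 24 of 24 luminal tumors, 5 of 5 normal glands and 4 of 17 basal tumors.

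**Figure D1:**
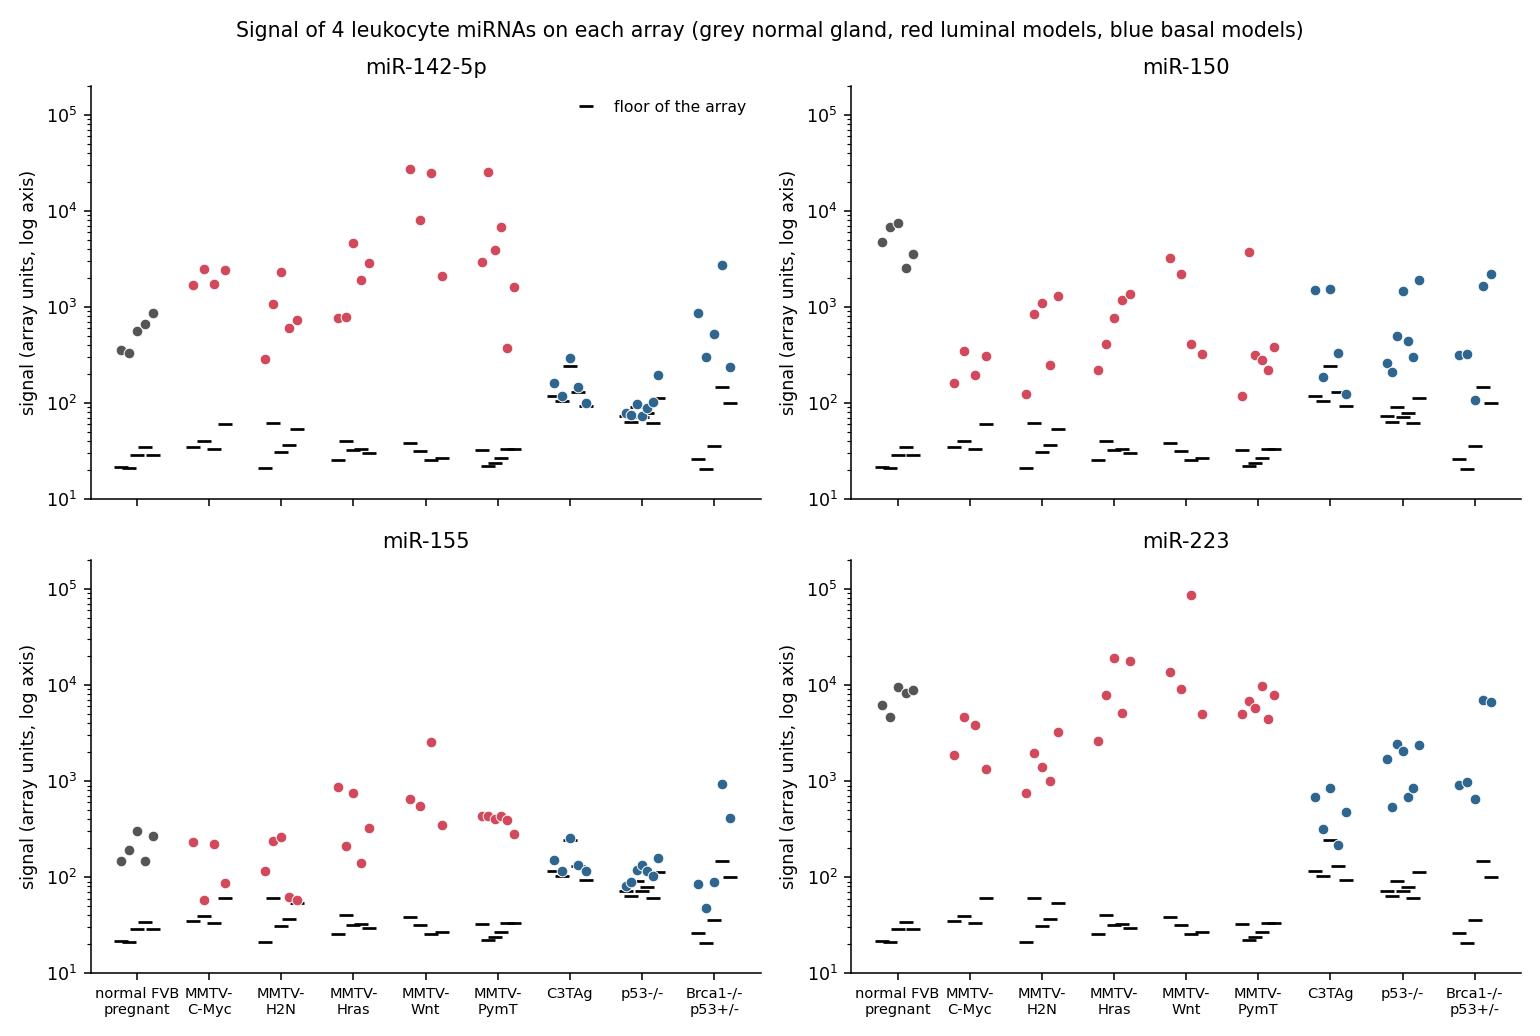
Signal of the 4 leukocyte miRNAs on each of the 46 arrays (log axis, arbitrary intensity units), by group, with normal gland in grey, luminal models in red, basal models in blue and the floor of each array as a black dash. miR-142-5p sits on the floor in C3TAg and p53-/- tumors and well above it on all 24 luminal tumors, while miR-150 is brightest in normal gland, at 2515 to 7465.

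miR-150 had the opposite profile, high in normal gland and low in most tumors. The normal glands gave 4769, 6806, 7465, 2515 and 3536, which is 72.8 to 320 times their floors. MMTV-C-Myc tumors gave 161, 344, 198 and 305, and MMTV-Hras tumors 222, 407, 766, 1166 and 1353. Every tumor of these 2 models was dimmer than every normal gland.

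MMTV-H2N tumors had miR-150 signals of 123, 838, 1096, 250 and 1283, and MMTV-Wnt tumors 3203, 2184, 406 and 323. The 6 MMTV-PymT tumors ran from 119 through a median of 301 to 3748. MMTV-Wnt replicate 1 and MMTV-PymT replicate 2 were the 2 tumors whose unscaled miR-150 signal reached into the range of normal gland.

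Among the basal models, C3TAg tumors gave miR-150 signals of 1511, 185, 1550, 328 and 125, of which 2 were above 3 times the floor. Brca1-/-p53+/- tumors gave 315, 322, 106, 1637 and 2183, with 4 of 5 above it. The p53-/- tumors ran from 210 through a median of 446 to 1911, all 7 above it. miR-150 therefore passed this limit on the same p53-/- arrays on which miR-142-5p did not, and 37 of 41 tumors had it above the limit. On p53-/- replicates 1, 2 and 6 it was 3.57, 3.28 and 4.88 times the floor. The 4 spots differed there by an SD of 1.15, 1.68 and 0.92 on the log2 scale, against a median of 0.31, so these values are uncertain.

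miR-155 was close to the floor on many arrays. In the study's check by RT-PCR, array and PCR levels of miR-155 showed weak or no association, which limits all miR-155 values given here. miR-142-5p, miR-150 and miR-223 are not among the miRNAs named for that check. Normal glands gave miR-155 signals of 148, 190, 302, 149 and 268. C3TAg tumors gave 152, 117, 255, 135 and 116, and p53-/- tumors ran from 80.7 through 115 to 158, with none of the 12 above 3 times the floor. Brca1-/-p53+/- tumors gave 84.0, 47.4, 88.9, 934 and 409, and 3 of the 5 were above it.

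In the luminal models, the miR-155 signals were 231, 58.5, 222 and 87.4 in MMTV-C-Myc, 116, 235, 259, 61.5 and 57.4 in MMTV-H2N, and 879, 209, 752, 142 and 328 in MMTV-Hras. MMTV-PymT tumors were tight, from 281 through a median of 418 to 438. MMTV-Wnt tumors gave 657, 553, 2581 and 351, the last but one being the highest unscaled signal of all 46 arrays. Tumors and normal glands overlapped in most models, and miR-155 was above 3 times the floor on 23 of 41 tumors, 20 of them luminal.

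miR-223 was bright almost everywhere, above 3 times the floor on 40 of 41 tumors. Normal glands gave 6229, 4597, 9499, 8354 and 8947. MMTV-Wnt tumors gave 13641, 9201, 86464 and 5049, and MMTV-Hras tumors 2627, 7952, 19221, 5156 and 17741. In unscaled signal, these 2 models held the tumors that were brighter than any normal gland, apart from 1 MMTV-PymT tumor at 9708. In scaled values only MMTV-Wnt replicate 3 (5.91) and MMTV-Hras replicate 3 (5.27) lay above all normal glands (4.09 to 5.18).

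MMTV-PymT tumors ran from 4460 through a median of 6310 to 9708 in miR-223, and MMTV-C-Myc tumors gave 1850, 4663, 3849 and 1335. MMTV-H2N tumors gave 761, 1979, 1410, 1012 and 3261. All MMTV-H2N tumors were dimmer than all normal glands.

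Brca1-/-p53+/- tumors had miR-223 signals of 902, 976, 645, 7057 and 6681, p53-/- tumors ran from 539 through 1702 to 2411, and C3TAg tumors gave 685, 317, 848, 218 and 474. The C3TAg tumors were the lowest group, and the 1 tumor array without miR-223 above 3 times the floor was among them.

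Set in order of their scaled group means, the 4 miRNAs gave 4 different sequences of groups. miR-142-5p was highest in MMTV-C-Myc (3.39 ± 0.64, SD, n = 4) and MMTV-Wnt (3.33 ± 0.93, n = 4), followed by MMTV-PymT (2.49 ± 1.99, n = 6), MMTV-Hras (1.93 ± 0.80, n = 5), MMTV-H2N (1.48 ± 1.19, n = 5), Brca1-/-p53+/- (1.09 ± 1.49, n = 5), normal gland (0.71 ± 0.34, n = 5), C3TAg (-0.12 ± 0.16, n = 5) and p53-/- (-0.24 ± 0.20, n = 7). miR-150 was highest in normal gland (3.87 ± 0.94), followed by p53-/- (2.19 ± 1.02), C3TAg (1.43 ± 1.29), MMTV-H2N (0.85 ± 0.88), Brca1-/-p53+/- (0.85 ± 0.92), MMTV-Hras (0.50 ± 0.49), MMTV-C-Myc (0.31 ± 0.79), MMTV-Wnt (-0.08 ± 1.41) and MMTV-PymT (-0.58 ± 1.85). In these scaled means the models at the top for miR-142-5p thus stood at the bottom for miR-150. That order depended on the scaling. Without scaling, as a ratio over the floor and after floor subtraction without scaling, MMTV-Wnt was second highest for miR-150.

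miR-155 means lay close together, from -0.02 ± 0.28 in p53-/- to -1.24 ± 1.44 in MMTV-H2N, and miR-223 means ran from 4.52 ± 0.43 in normal gland and 4.17 ± 0.82 in MMTV-Hras down to 2.37 ± 0.27 in MMTV-H2N and 1.45 ± 0.56 in C3TAg. Of all neighbours in these orders, the one pair whose difference passed an exact permutation test (two-sided, adjusted over the 144 pairs of groups and miRNAs) was normal gland above C3TAg for miR-142-5p (exact p = 0.00794, adjusted p = 0.0457), a pair that limma did not call, in which C3TAg was at the floor on all 5 arrays and whose direction turned under 3 of the 7 other scalings. Over all pairs, 10 of 36 passed for miR-142-5p, 5 for miR-150, 1 for miR-155 and 9 for miR-223, all under the main scaling. Pairs of groups were tested for the leukocyte miRNAs alone, so the share of all miRNAs that would pass is not known. Of the 10 for miR-142-5p, 9 set another group against C3TAg or p53-/-, where it was at the floor, and the remaining one was MMTV-Hras above normal gland. The 1 for miR-155 was p53-/- above normal gland, with none of the 7 p53-/- arrays above 3 times the floor and a direction that turned under 4 of 7 other scalings. With 4 arrays against 5 the smallest possible exact p is 0.0159, which was adjusted to 0.0509, so no such pair could pass.

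**Figure D2:**
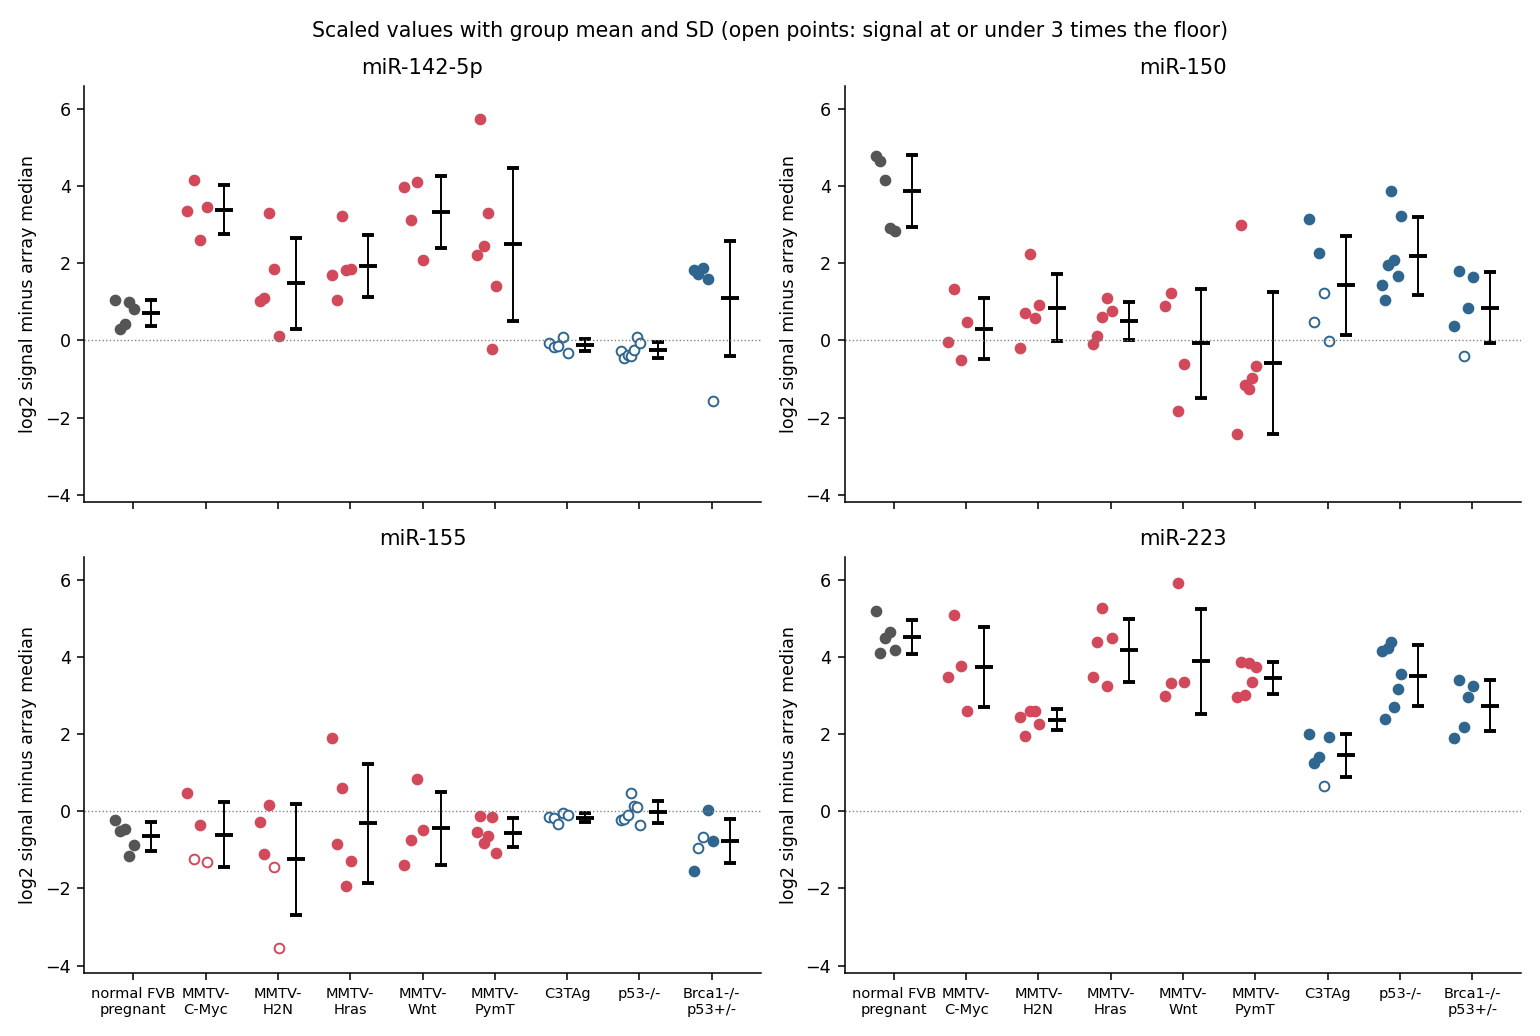
Scaled values (log2 signal minus the median of the array) of the 4 leukocyte miRNAs in the 9 groups, with the group mean ± SD as bars and open points for arrays at or under 3 times the floor. Normal gland has the highest mean for miR-150 (3.87) and miR-223 (4.52), and MMTV-C-Myc (3.39) and MMTV-Wnt (3.33) the highest for miR-142-5p.

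The first comparison asked whether basal and luminal tumors differ. miR-142-5p was lower in the 17 basal than in the 24 luminal tumors by a log2 difference of -2.27 ± 0.38 (SE, limma, adjusted p = 9.02e-07), a 4.81-fold difference. miR-150 was higher in basal tumors by 1.39 ± 0.38 (adjusted p = 0.00102) and miR-223 lower (-0.82 ± 0.33, adjusted p = 0.0246), but under other scalings of the arrays these directions turned in 2 and 4 of 7 cases. miR-155 differed by 0.35 ± 0.29 (adjusted p = 0.275). On the same arrays 26.0% of all 334 miRNAs were called lower in basal tumors and 44.6% higher, with a median over all miRNAs of 0.55, so that calls were common in both directions.

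Unscaled, the basal signals of miR-142-5p ran from 73.7 through a median of 148 to 2750 and the luminal signals from 285 through 2205 to 27423. For miR-150 the corresponding values were 106, 328 and 2183 in basal and 119, 362 and 3748 in luminal tumors. The basal median of miR-142-5p lay below the lowest luminal signal, while the miR-150 signals of the classes overlapped along most of their length.

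The direction for miR-142-5p was lower in basal tumors under all 7 other scalings and background corrections tried, from -4.90 to -0.25, though it missed the threshold with the brightest miRNAs as the reference (-0.25, adjusted p = 0.552). That for miR-150 ran from -1.23 to 3.41 and turned under 2 of them (-1.23 as the ratio over the floor, adjusted p = 0.00891, and -0.20 after subtracting the floor without scaling), those for miR-155 (-2.28 to 2.37) and miR-223 (-3.45 to 1.20) under 4 each. With Brca1-/-p53+/- as the only basal model, the differences were -1.36 for miR-142-5p (limma, adjusted p = 0.097), 0.68 for miR-150 (adjusted p = 0.381), -0.14 for miR-155 and -0.76 for miR-223, none past the threshold. This alternative was chosen after seeing that array medians of the other basal models lay near the floor. With the model as a random block, miR-142-5p kept its call (-2.28, adjusted p = 0.0399), and miR-150 (1.30) and miR-223 (-0.94) did not (adjusted p = 0.282 each). Without C3TAg replicate 4 the miR-223 difference was -0.69 (adjusted p = 0.0555).

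Because miR-142-5p was not above 3 times the floor on any C3TAg or p53-/- array, its difference from other models can be given only as a lower bound, which holds under the main scaling alone. Taking the dimmest miRNA that was above 3 times the floor as the limit on those arrays, unless the probe itself was higher, miR-142-5p was at least 4.44-fold higher in MMTV-C-Myc than in C3TAg and at least 4.24-fold in MMTV-Wnt under that scaling. Over p53-/- the bounds were 5.03 and 4.81-fold for the same models. With the brightest miRNAs as the reference, miR-142-5p lay 3.07 above normal gland in MMTV-C-Myc and 3.17 in MMTV-Wnt but also 2.48 in C3TAg, so that these models differed from C3TAg by less than the bounds, and MMTV-PymT (2.05) and MMTV-H2N (1.28) lay below C3TAg.

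Differences among the 8 models were tested together by limma's moderated F test. miR-142-5p (F = 9.88, adjusted p = 2.69e-07), miR-223 (F = 7.51, adjusted p = 6.12e-06) and miR-150 (F = 3.84, adjusted p = 0.00239) passed it, and miR-155 did not (F = 1.19, adjusted p = 0.328). The test was passed by 97.9% of all miRNAs. The calls for miR-142-5p and miR-223 held under all 7 other scalings, while miR-155 passed under 6 of them, the exception being quantile normalization, and with array weights (adjusted p = 0.0297), and miR-150 did not pass without scaling (adjusted p = 0.592) or after floor subtraction (adjusted p = 0.513).

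**Figure D3:**
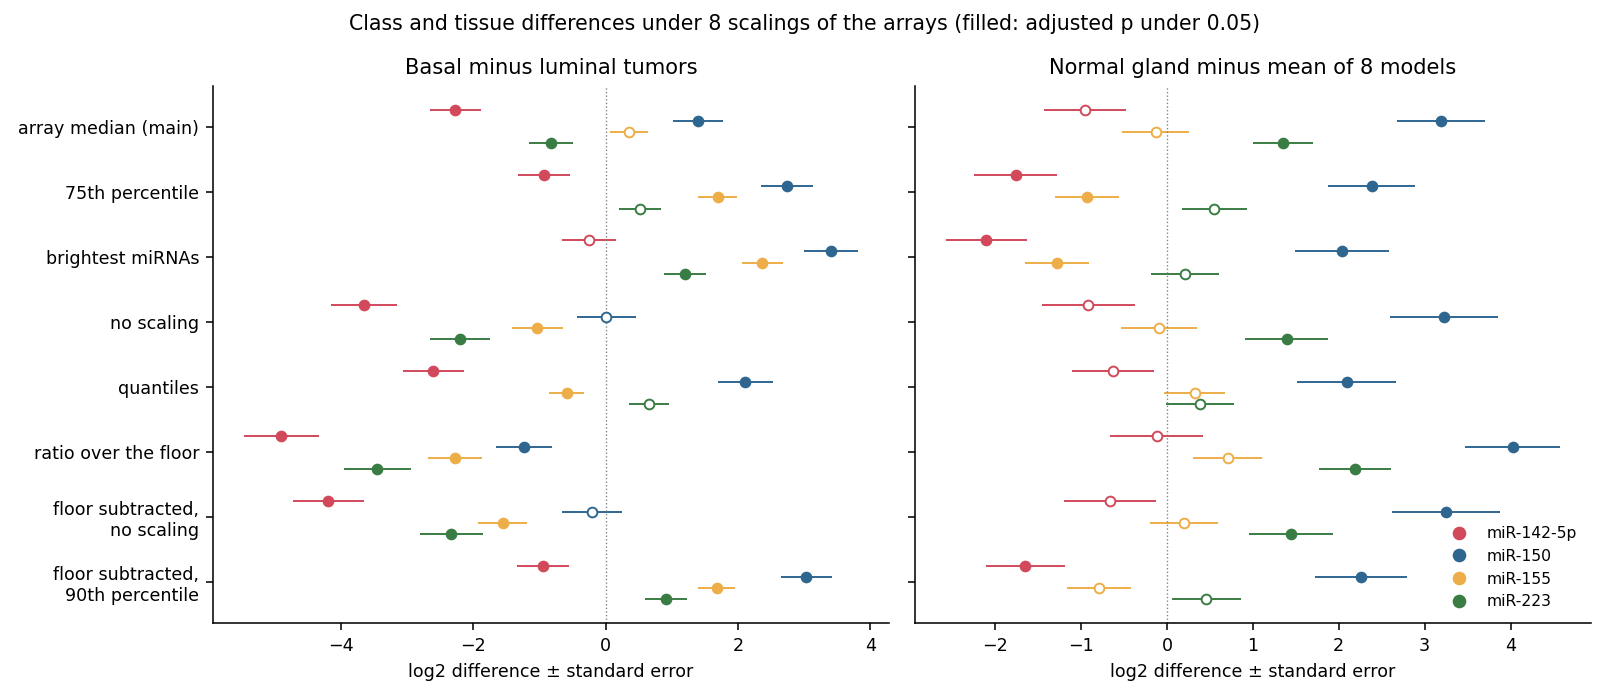
Log2 difference ± SE of each leukocyte miRNA between basal and luminal tumors and between normal gland and the mean of the 8 models, under the main scaling and 7 other scalings and background corrections, with filled points for an adjusted p under 0.05. miR-150 is higher in normal gland under each of them (2.04 to 4.02), and miR-142-5p is lower in basal tumors under each (-4.90 to -0.25), while miR-155 and miR-223 cross 0 between basal and luminal tumors.

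The second comparison set normal gland against the mean of the 8 models. miR-150 was higher in normal gland by a log2 difference of 3.19 ± 0.51 (SE, limma, adjusted p = 1.63e-06), a 9.12-fold difference that was called under all 7 scaling alternatives (2.04 to 4.02). miR-223 was higher by 1.35 ± 0.35 (adjusted p = 0.000871), with the same direction under all 7 (0.21 to 2.19) and a call under 3. miR-142-5p differed by -0.96 ± 0.48 (adjusted p = 0.074), with a call in the same direction under 3 of the 7, and miR-155 by -0.13 ± 0.39 (adjusted p = 0.76), with a call in that direction under 2 of the 7 and the opposite direction, not called, under 3. Of all miRNAs, 27.5% were called higher in normal gland and 37.7% lower, with a median of -0.20. Ranked by p, miR-150 stood at place 26 of 334.

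Each model was then set against the same 5 normal glands, so that the 8 differences share their controls and are not independent of each other. miR-150 was called lower in all 8 models, although in C3TAg and p53-/- the direction turned under 2 and 1 of the 7 other scalings. The log2 differences were -4.45 ± 0.65 in MMTV-PymT (adjusted p = 4.22e-07), -3.95 ± 0.72 in MMTV-Wnt (adjusted p = 2.34e-05), -3.56 ± 0.72 in MMTV-C-Myc (adjusted p = 6.9e-05), -3.37 ± 0.68 in MMTV-Hras (adjusted p = 0.000351) and -3.02 ± 0.68 in MMTV-H2N (adjusted p = 0.000311). The shares of all miRNAs called lower in these models were 20.1%, 29.0%, 21.3%, 11.7% and 22.5%, in the same order.

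In the basal models miR-150 was lower by -3.02 ± 0.68 in Brca1-/-p53+/- (adjusted p = 0.000174), -2.45 ± 0.68 in C3TAg (adjusted p = 0.00133) and -1.69 ± 0.63 in p53-/- (adjusted p = 0.0153), where 33.2%, 29.9% and 26.6% of all miRNAs were called lower. None of these 3 was called under every scaling. The Brca1-/-p53+/- call was lost under 3 of the 7 others (-0.89 with the brightest reference, -1.74 after quantile normalization and -1.03 at the 90th percentile, adjusted p = 0.274, 0.0627 and 0.2), and C3TAg and p53-/- were called under 3 of the 7 each. With the brightest miRNAs as the reference, miR-150 was 0.86 higher in C3TAg and 0.19 higher in p53-/- than in normal gland, and in C3TAg it was 0.23 higher after floor subtraction and scaling to the 90th percentile. Without normal gland replicate 1 the p53-/- difference was -1.46 (adjusted p = 0.0519). The scaled values of all 5 normal glands lay above every Brca1-/-p53+/-, MMTV-H2N, MMTV-Hras, MMTV-C-Myc and MMTV-Wnt tumor, and overlapped those of C3TAg, p53-/- and MMTV-PymT. The share of all miRNAs that separate in this way was not counted.

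miR-142-5p was called higher than in normal gland in 3 luminal models. The differences were 2.68 ± 0.67 in MMTV-C-Myc (adjusted p = 0.000882), 2.62 ± 0.67 in MMTV-Wnt (adjusted p = 0.00159) and 1.78 ± 0.61 in MMTV-PymT (adjusted p = 0.018), where 40.4%, 17.1% and 15.9% of all miRNAs were called higher. The MMTV-PymT call rested on replicate 2, without which the difference was 1.13 (adjusted p = 0.112), and was lost after quantile normalization (1.43, adjusted p = 0.0795). That of MMTV-C-Myc was lost as the ratio over the floor (1.35, adjusted p = 0.144), and that of MMTV-Wnt held under all 7 scalings. MMTV-Hras (1.22 ± 0.64, adjusted p = 0.208) and MMTV-H2N (0.77 ± 0.64, adjusted p = 0.29) did not pass, against 6.89% and 28.7% of all miRNAs called higher. MMTV-H2N was called at the 75th percentile (1.47, adjusted p = 0.0432), and both were called with array weights (1.63 in MMTV-Hras and 1.20 in MMTV-H2N, adjusted p = 0.00962 and 0.0233).

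In the basal models the miR-142-5p differences from normal gland were 0.38 ± 0.64 in Brca1-/-p53+/- (adjusted p = 0.598), -0.83 ± 0.64 in C3TAg (adjusted p = 0.244) and -0.96 ± 0.59 in p53-/- (adjusted p = 0.143), the last 2 from arrays at the floor. The Brca1-/-p53+/- difference was larger and called under 3 of the 7 other scalings (1.88 at the 75th percentile, 2.52 with the brightest reference and 2.20 at the 90th percentile, adjusted p = 0.00898, 0.000481 and 0.00139) and was -0.63 as the ratio over the floor. For C3TAg and p53-/- 4 of the 7 called miR-142-5p lower, while C3TAg was called higher with the brightest reference (2.48, adjusted p = 0.000411). In those models 36.8%, 43.7% and 47.3% of all miRNAs were called higher. Without Brca1-/-p53+/- replicate 5, the lowest of its group, that difference was 1.05 (adjusted p = 0.122).

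miR-155 was not called in any model under the main scaling, with differences between -0.60 ± 0.52 in MMTV-H2N and 0.63 ± 0.48 in p53-/-. Other scalings called it in opposite directions in C3TAg (3.79 with the brightest reference and -2.73 as the ratio over the floor, adjusted p = 3.72e-09 and 1.35e-05) and p53-/- (2.50 and -2.40), and higher in MMTV-Wnt under 3 of the 7 (1.91 without scaling, adjusted p = 0.0107), so that no direction is given for it. miR-223 was called lower in C3TAg (-3.07 ± 0.47, adjusted p = 1.01e-07), MMTV-H2N (-2.15 ± 0.47, adjusted p = 0.000193), Brca1-/-p53+/- (-1.78 ± 0.47, adjusted p = 0.000825) and p53-/- (-1.005 ± 0.43, adjusted p = 0.0339), but with the brightest miRNAs as the reference all of these except MMTV-H2N were higher (0.24, 0.35 and 0.87 for C3TAg, Brca1-/-p53+/- and p53-/-). The p53-/- call for miR-223 was lost without any 1 of 6 arrays, namely p53-/- replicate 2, 5 or 6 and normal gland replicate 1, 3 or 4, with differences between -1.01 and -0.82. In MMTV-PymT the miR-223 difference was -1.06 ± 0.45 (adjusted p = 0.0589), and in MMTV-C-Myc, MMTV-Wnt and MMTV-Hras it was -0.79, -0.63 and -0.35 with none past the threshold. Leaving out 1 array brought 3 of these differences past it, to -1.12 without MMTV-PymT replicate 6 (adjusted p = 0.0489), -1.24 without MMTV-C-Myc replicate 2 (adjusted p = 0.0399) and -1.30 without MMTV-Wnt replicate 3 (adjusted p = 0.0268).

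A difference between 2 miRNAs of the same array does not change when the whole array is scaled. The log2 difference of miR-150 minus miR-142-5p averaged 3.16 in normal gland, from 1.93 to 4.37. It averaged -3.41 in MMTV-Wnt, -3.08 in MMTV-C-Myc and -3.07 in MMTV-PymT, where all 14 tumors lay below all normal glands. Compared with normal gland, the difference was thus shifted by -6.57, -6.24 and -6.23 in these models (exact permutation test, two-sided, adjusted over 24 comparisons, adjusted p = 0.0239, 0.0239 and 0.0191).

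The same measure averaged -1.43 in MMTV-Hras and -0.62 in MMTV-H2N, also without overlap with normal gland (exact test, adjusted p = 0.0191 each). In Brca1-/-p53+/- tumors it averaged -0.24 with 1 tumor inside the range of normal gland (exact test, adjusted p = 0.0317). C3TAg (1.55, adjusted p = 0.0667) and p53-/- (2.43, adjusted p = 0.273) did not pass the exact test, and there miR-142-5p is a bound. The 2 miRNAs therefore changed unequally between normal gland and 6 of the 8 models. Here and below, such differences were tested for leukocyte miRNAs alone, so the share among other pairs of miRNAs is not known.

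For miR-150 minus miR-155, normal gland averaged 4.52, from 3.72 to 5.17, and all 8 models were lower by the exact test (shifts of -4.54 in MMTV-PymT to -2.31 in p53-/-), 7 of them without overlap. In C3TAg and p53-/- miR-155 was at the floor on all 12 arrays, and in C3TAg miR-150 on 3 of 5, and the C3TAg call was lost after floor subtraction (-2.05, adjusted p = 0.0902 in the exact test). For miR-155 minus miR-142-5p, normal gland averaged -1.36 and 5 of 8 models passed. It was lower in MMTV-C-Myc (-4.001), MMTV-Wnt (-3.78) and MMTV-H2N (-2.72), and higher in C3TAg (-0.04) and p53-/- (0.22), where both miRNAs were at the floor, so that these 2 calls compare a pair of unmeasured values with normal gland. The MMTV-H2N call was lost after floor subtraction (-1.38, adjusted p = 0.0529 in the exact test).

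**Figure D4:**
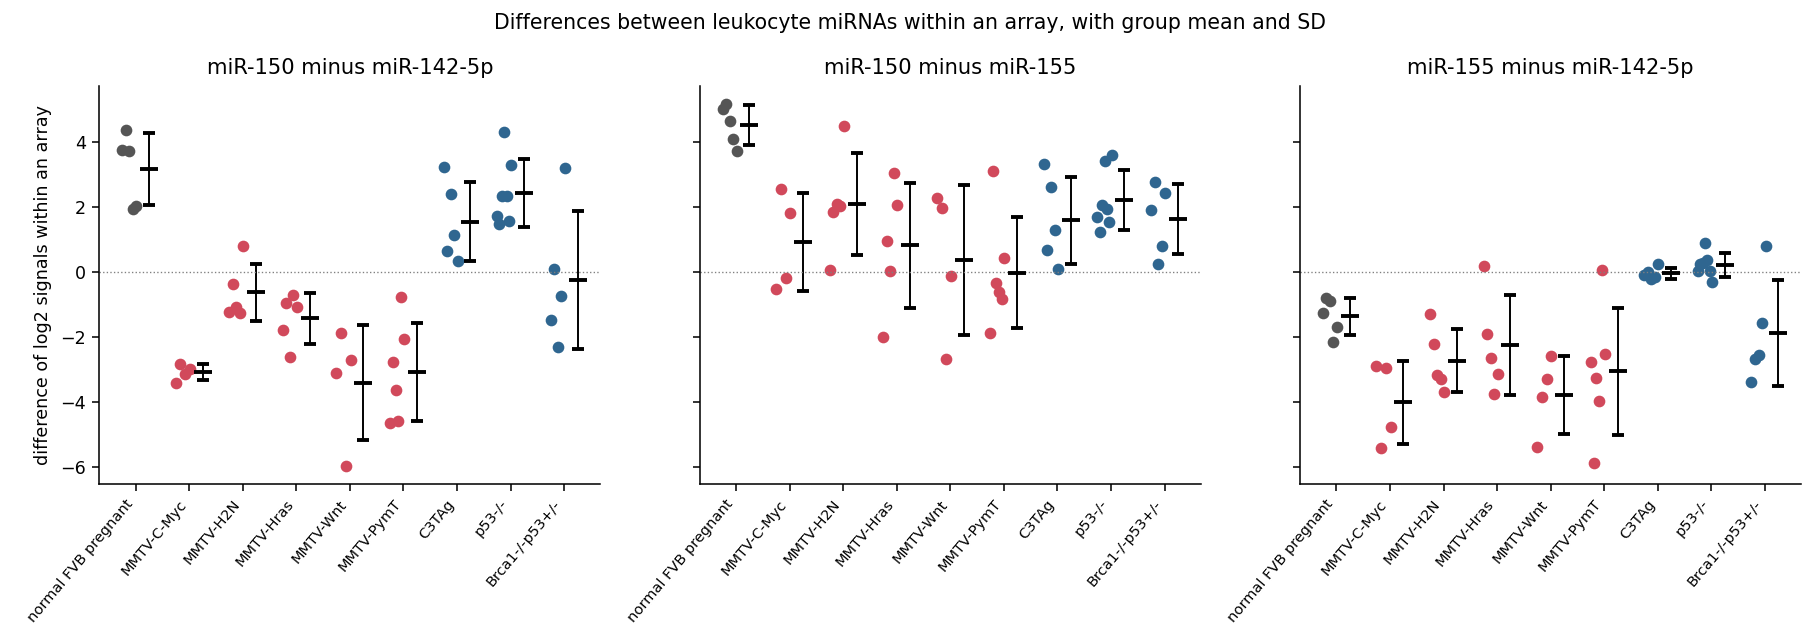
Within-array log2 differences between pairs of leukocyte miRNAs, 1 point per array, in normal gland (grey), luminal (red) and basal (blue) models. miR-150 minus miR-142-5p is 1.93 to 4.37 in the 5 normal glands and below 0 on every MMTV-C-Myc, MMTV-Hras, MMTV-Wnt and MMTV-PymT tumor.

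The rank of a miRNA within its array needs no scaling either. miR-142-5p stood at the 53.3rd to 59.3rd percentile of the 334 miRNAs in normal gland, at the 73.7th to 80.8th in MMTV-C-Myc and at the 72.5th to 87.7th in MMTV-Wnt. miR-150 stood at the 74.9th to 88.0th in normal gland, the 45.2nd to 59.9th in MMTV-C-Myc and the 26.7th to 74.0th in MMTV-PymT. In these groups the ranks moved the same way as the scaled values, without overlap with normal gland. How many of the 334 miRNAs had ranks without overlap was not counted. In the basal models the miR-150 ranks did not separate. They ran from 41.0 to 94.6 in C3TAg, with a median of 89.8 above the 82.0 of normal gland. In p53-/- they ran from 71.6 to 90.1 and in Brca1-/-p53+/- from 49.7 to 78.7, all overlapping normal gland. The miR-142-5p ranks lay below normal gland in C3TAg (1.2 to 47.0) and p53-/- (1.2 to 50.9), where it was at the floor. Those of Brca1-/-p53+/- ran from 28.4 to 82.6 and overlapped normal gland.

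Single tumors differed within models. MMTV-Wnt replicate 3 had the highest unscaled miR-223 (86464) and miR-155 (2581) of all arrays. In scaled values it was also highest for miR-223 (5.91), but MMTV-Hras replicate 1 was highest for miR-155 (1.90 against 0.84). The summed leukocyte signal of MMTV-Wnt replicate 3 was 114500, against 7832 to 44920 on the other MMTV-Wnt arrays. Most of that sum was miR-223. miR-150 went the other way there, at 406 against 3203, 2184 and 323 on the others, with the lowest scaled value of its group (-1.83). On the same array the 6 epithelial miRNAs (the miR-200 family, miR-141 and miR-205) summed to 1748, against 189300 to 533500 on the others, and the 4 fibroblast and smooth muscle miRNAs to 86270, against 166100 to 558200. All 6 epithelial miRNAs were still above 3 times the floor there. The part of this low epithelial signal in the MMTV-Wnt results was not tested, but without that array the MMTV-Wnt differences from normal gland were 2.35 for miR-142-5p (limma, adjusted p = 0.00864), -3.37 for miR-150 (adjusted p = 0.000469) and -0.23 for miR-155 (adjusted p = 0.782).

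MMTV-PymT replicate 2 was high in both miR-142-5p (25312) and miR-150 (3748), with a leukocyte sum of 36340 and an epithelial sum of 153400 that lay within the 131900 to 286100 of the others. Without it the MMTV-PymT difference from normal gland in miR-150 was -5.17 (limma, adjusted p = 5.94e-09). MMTV-PymT replicate 5 was the low one for miR-142-5p (378), and its red cell sum of 8678 and fibroblast sum of 14950 were also the lowest of its group (others 19400 to 229500 and 33210 to 49180). In Brca1-/-p53+/-, replicates 4 and 5 had the brightest unscaled miR-150, miR-155 and miR-223. They also had the highest floors of that model (147 and 100, against 20.5 to 35.5 on the others). In scaled values replicate 2 was the highest of the model for miR-150 (1.80) and miR-223 (3.40), and replicate 4 for miR-155 (0.04). Replicate 5 was the lowest for miR-142-5p, scaled or not. On replicate 3 of that model the epithelial miRNAs summed to 604 and only 1 of 6 was above 3 times the floor. Whether these other cell types had a part in the leukocyte values was not tested.

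Over single tumors the leukocyte miRNAs did not move together in a way that passed a test. With each value centred on its group, the 6 pairs gave Pearson correlations of -0.08 to 0.32 over 46 arrays, none with an adjusted p under 0.345 (permutation test within groups). The highest was miR-142-5p with miR-150 (r = 0.32, rho = 0.16), which was 0.05 without MMTV-PymT replicates 2 and 5. For miR-155 with miR-223, r was 0.24 and became 0.39 without MMTV-H2N replicate 5 and MMTV-Hras replicate 1. Within p53-/- (7 tumors) and MMTV-PymT (6 tumors), none of the 12 correlations passed an exact permutation test, the smallest exact p being 0.0694 (adjusted p = 0.833).

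**Figure D5:**
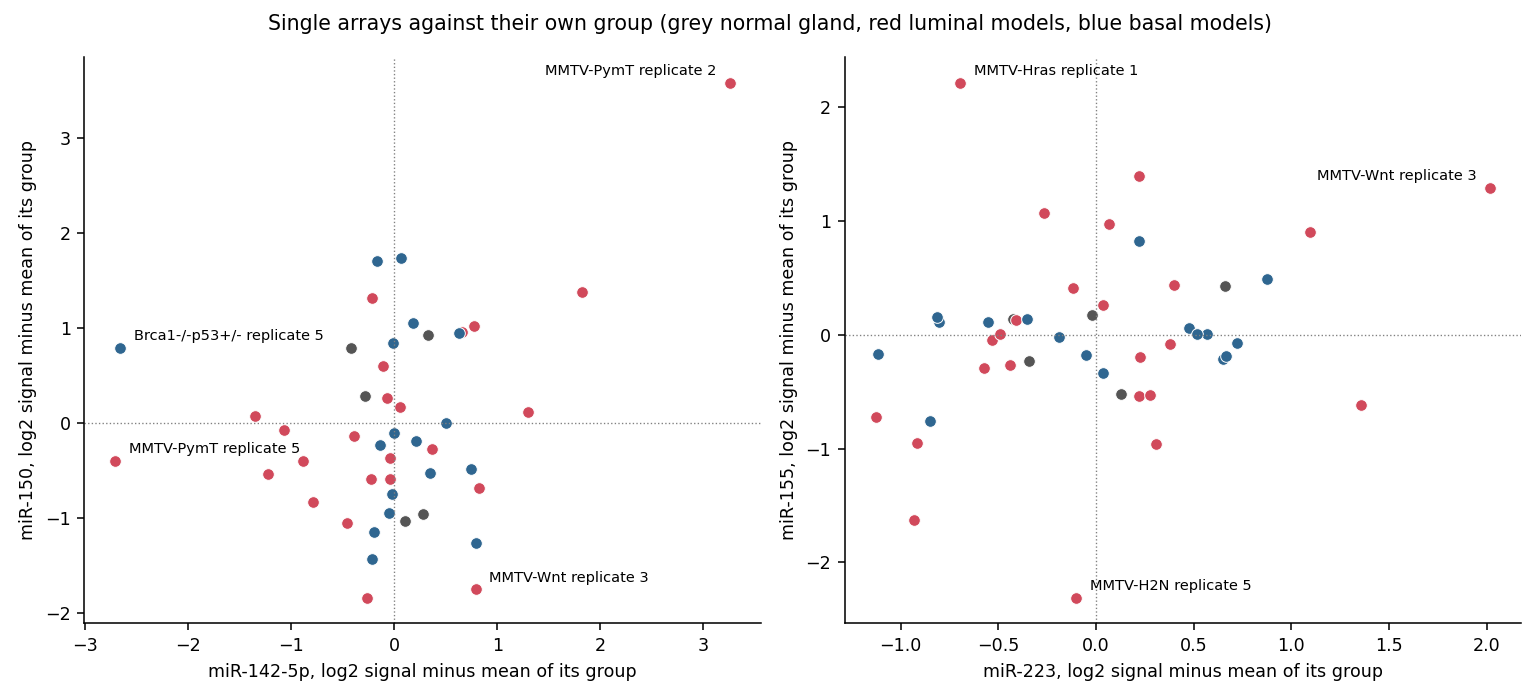
Centred scaled values (log2, each array minus its group mean) of miR-142-5p against miR-150 on the left and of miR-223 against miR-155 on the right, 1 point per array. Selected arrays are named where a value lies over 1.5 from the mean of its group, and other arrays past 1.5 are not named. MMTV-PymT replicates 2 and 5 lie far apart along the miR-142-5p axis, and r falls from 0.32 to 0.05 without them.

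Other miRNAs tied to immune cells were counted from a list of 9, of which 8 were measured. Between basal and luminal tumors 2 were higher, 4 lower and 2 not called, with a median of -1.29 against 0.55 over all miRNAs, of which 44.6% were called higher and 26.0% lower. The largest differences were those of miR-146b (-3.93 ± 0.36, limma, adjusted p = 4.19e-13), a relative of the NF-kappaB-induced miR-146a, and miR-181a (-2.35), which tunes T cell receptor signalling. In normal gland against the models 4 were higher, 2 lower and 2 not called, with a median of 0.94 against -0.20 over all miRNAs (27.5% called higher and 37.7% lower), led by miR-146b (3.35) and miR-326 (-1.81). The 4 leukocyte miRNAs themselves gave a median of -0.23 between basal and luminal tumors and 0.61 in normal gland against the models.

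Markers of other cells in the tissue moved in the same comparisons, and their part in the leukocyte results was not tested. In basal against luminal tumors, where 26.0% of all miRNAs were called lower and 44.6% higher, 3 of 4 fibroblast and smooth muscle miRNAs were lower and none higher (miR-143 -3.48, miR-214 -1.28), as were 5 of 6 epithelial miRNAs (miR-141 -4.27, miR-200a -3.41) and 1 of 3 red cell miRNAs (miR-451 -3.05, with miR-144 at 0.44 not called). None of 3 skeletal muscle miRNAs was called (miR-1 -1.31, miR-133b 0.73), and the endothelial miR-126-5p was higher (1.75). The leukocyte sums ran from 737.5 to 2947 in C3TAg, 913.8 to 4634 in p53-/-, 1362 to 12380 in Brca1-/-p53+/- and 11500 to 17830 in normal gland, and the epithelial sums from 2557 to 4216, 4577 to 23630, 604 to 16630 and 56620 to 159700. The epithelial sums of all basal arrays lay below those of all normal glands, as did the leukocyte sums of C3TAg and p53-/-. The arrays of these models also had medians closest to their floors.

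In normal gland against the models, where 27.5% of all miRNAs were called higher and 37.7% lower, 3 of 4 fibroblast and smooth muscle miRNAs were higher (miR-143 2.40, miR-145 2.13), as were 2 of 3 red cell miRNAs (miR-451 3.13, miR-486 2.15), 3 of 3 skeletal muscle miRNAs (miR-133b 3.37, miR-1 2.54) and 3 of 6 epithelial miRNAs (miR-200a 2.61, miR-205 1.84), and miR-126-5p was lower (-1.73). The higher miR-150 of normal gland therefore stood beside higher members of the red cell, muscle, stromal and epithelial lists on the same arrays, and a lower endothelial one. Its relation to them was not tested. Among all 34 listed names, 29 were on the array.

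The miRNAs whose values were most like each leukocyte miRNA were sought among the 204 that passed 3 times the floor in 23 or more of the 46 arrays. With values centred on their groups, those most like miR-142-5p were miR-29c (r = 0.71), miR-30e (0.70) and miR-144 (0.68), and those most like miR-155 were miR-130b (0.68), miR-22 (0.49) and miR-423 (0.49). For miR-223 they were miR-199a (0.54), miR-31 (0.54) and miR-199b (0.51), and for miR-150 no r was above 0.39 (miR-218, miR-805 and miR-99a). No leukocyte miRNA was among the 3 most like another.

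Without centring, the differences between groups enter as well. miR-142-5p was then most like miR-106a (r = 0.81), miR-19b (0.77) and miR-19a (0.75), miR-150 most like miR-196a (0.63), miR-154 (0.58) and miR-382 (0.58), miR-155 most like miR-652 (0.51), miR-423 (0.51) and miR-25 (0.47), and miR-223 most like miR-199a (0.81), miR-199b (0.79) and miR-10a (0.67). These correlations are descriptions over arrays that share a scaling, and miR-106a, miR-19a and miR-19b come from paralogous miRNA clusters.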

How the data were processed

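Total RNA of each tumor or gland was labelled in 1 colour and hybridised to a custom Agilent array. The deposited intensity table holds the processed signal intensity of 1336 spots (334 miRNAs with 4 spots each), background-corrected by the authors' Feature Extraction step and not normalized between arrays. The deposited log2 table holds the authors' log2 values after global median normalization; for each array it differed from the log2 of the intensity table by a constant (column medians 8.0032 to 8.00326). It was used as an alternative. No arrays held identical values, and 1 column of the intensity table matched no sample label and was not used. On 7 arrays (MMTV-C-Myc replicate 4, MMTV-Hras replicates 1 and 2, all MMTV-Wnt) values carry only 3 significant digits.

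Here log2 intensity was centred on the median of each array and the 4 spots averaged. Values of all 334 miRNAs were fitted with limma 3.58.1 in R 4.3.3 (lmFit, eBayes), with p-values adjusted by Benjamini-Hochberg over all of them and 0.05 as the threshold. Scripts in Python 3.11.15 with scipy 1.17.1 ran exact and within-group permutation tests. The limma step was tested on simulated data. The floor is the 5th percentile of an array's spots; lower bounds take, per array, the higher of the lowest signal among miRNAs above 3 times that floor and the probe's own signal, both median-scaled. The p-value of a difference sets it against the spread between single arrays, and precision is limited by how many arrays there are. The class comparison takes the tumors of a class as independent although they come from several models. Its fit with the model as a random block is given beside it. No detection calls were used.

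Named are the members of the leukocyte list, the 2 members of each other list with the largest absolute difference in each main comparison, and the 3 miRNAs most like each leukocyte miRNA. The members and lists were chosen with earlier results of these data known. Replicate numbers do not pair tumors between models. Other scalings, background corrections, spot summaries, filters, weights, blocks, subsets and a t-test were tried, along with leaving out each array. Leaving out the 7 arrays with 3 digits and using Brca1-/-p53+/- alone for the basal class were chosen after seeing the data.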

Additional observations from a re-analysis of the deposited data

Results flagged for a closer look

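In 3 of the 36 combinations of a leukocyte miRNA and a group with 4 to 7 arrays, 1 array lay far from the rest by Dixon's criterion, which chance passes in about 1 of 20 groups. In Brca1-/-p53+/-, replicate 5 had a scaled miR-142-5p of -1.57, with the nearest other array at 1.60. In MMTV-PymT, replicate 2 had a scaled miR-150 of 2.99, with the nearest at -0.65. In MMTV-Wnt, replicate 3 had a scaled miR-223 of 5.91, with the nearest at 3.36, and it is the array on which the epithelial miRNAs were lowest in its group. The values without these arrays stand beside the results they touch.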

How the results depend on the processing

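The brightness of the arrays sets the limits of these results. On C3TAg and p53-/- arrays most miRNAs, miR-142-5p and miR-155 among them, lie near the floor, so values there depend on the scaling and on how the floor is treated. Changes are log2 differences, and the cause of a change under an alternative was not tested.

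Higher miR-150 in normal gland kept its direction and call under all 23 alternatives to its scaling, summary, weighting, blocking and models, and lower miR-142-5p in basal tumors kept its direction under all 27. The median over all miRNAs between basal and luminal tumors (0.55 in the main scaling) was 1.89 after scaling to the 75th percentile, 2.57 with the brightest miRNAs as the reference, -0.83 without scaling, 0.37 after quantile normalization, -2.08 as the ratio over the floor, -1.23 after floor subtraction and 2.01 after floor subtraction with scaling to the 90th percentile. The share of calls that were higher in basal tumors, 63.1%, became 81.4%, 89.6%, 29.5%, 63.5%, 2.76%, 11.7% and 83% in that order. For normal gland against the models the share called higher, 42.2%, became 20.5%, 14.9%, 43%, 47.2%, 77.3%, 63% and 20.2%.

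With the 75th percentile, basal against luminal differences were 1.69 for miR-155 and 0.52 for miR-223. Normal gland against the models gave -1.76 for miR-142-5p and -0.93 for miR-155, both now called, and 0.55 for miR-223, no longer called, and the F value of miR-155 was 8.11. Against normal gland, miR-142-5p was 1.33 in C3TAg and 0.36 in p53-/-, miR-155 0.11 in MMTV-H2N and 1.36 in Brca1-/-p53+/-, and miR-223 0.31 in p53-/-.

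With the brightest miRNAs as the reference, basal against luminal differences were -0.25 for miR-142-5p, 2.37 for miR-155 and 1.20 for miR-223. Normal gland against the models gave -2.10 for miR-142-5p and -1.28 for miR-155, both now called, and 0.21 for miR-223, no longer called, and the F value of miR-155 was 15.1. Against normal gland, C3TAg gave 2.48 for miR-142-5p, 0.86 for miR-150 and 0.24 for miR-223, p53-/- gave 0.92, 0.19 and 0.87 for the same miRNAs, and Brca1-/-p53+/- gave 2.00 for miR-155 and 0.35 for miR-223.

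Without scaling, basal against luminal differences were 0.013 for miR-150 and -1.03 for miR-155, with F values of 0.802 and 5.69. Against normal gland, miR-155 was -0.45 in C3TAg, -0.67 in MMTV-C-Myc and -0.85 in p53-/-, and miR-223 was 0.17 in MMTV-Hras and 1.07 in MMTV-Wnt. After quantile normalization, basal against luminal differences were -0.59 for miR-155 and 0.66 for miR-223, normal gland against the models gave 0.32 and 0.38 with 123 calls, miR-155 was -1.24 in C3TAg, -0.31 in MMTV-C-Myc and -0.44 in p53-/-, and miR-223 0.46 in p53-/- and 0.16 in Brca1-/-p53+/-.

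As the ratio over the floor, basal against luminal differences were -1.23 for miR-150 and -2.28 for miR-155, normal gland against the models gave 0.71 for miR-155, and its F value was 18.4. miR-155 was -2.73 in C3TAg, -1.29 in MMTV-C-Myc and -2.40 in p53-/-, miR-223 was 0.88 in MMTV-Wnt and miR-142-5p -0.63 in Brca1-/-p53+/-, and the within-group correlation of miR-150 with miR-155 was 0.037. After floor subtraction with 50 added and no scaling, the class differences were -0.20 for miR-150 and -1.56 for miR-155 (F 0.909 and 10.9), normal gland against the models gave 0.20 for miR-155, which was -1.77 in C3TAg, -0.77 in MMTV-C-Myc and -1.44 in p53-/-, and miR-223 was 0.17 in MMTV-Hras and 1.07 in MMTV-Wnt.

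With scaling to the 90th percentile after floor subtraction, the class differences were 1.68 for miR-155 and 0.91 for miR-223, normal gland against the models gave -1.65 for miR-142-5p, now called, and 0.46 for miR-223, no longer called, and the F value of miR-155 was 7.38. C3TAg gave 1.16 for miR-142-5p and 0.23 for miR-150, p53-/- 0.39 for miR-223, and Brca1-/-p53+/- 1.84 for miR-155 and 0.16 for miR-223.

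The group with the highest mean changed under most of these settings. The highest mean minus the next, as ordered in the main scaling, was 0.06 for miR-142-5p, 1.69 for miR-150, 0.15 for miR-155 and 0.35 for miR-223. In the order 75th percentile, brightest reference, no scaling, quantile, ratio, floor subtraction and its 90th percentile scaling, the top group minus the highest other group was -0.58, -0.098, -2.35, -0.41, -2.78, -2.35 and -0.095 for miR-142-5p, -0.71, -1.29, -2.76, -0.67, -4.11, -3.22 and -0.81 for miR-155, and -0.31, -0.87, -1.07, -0.46, -0.88, -1.07 and -0.39 for miR-223. For miR-150 normal gland led by 0.28 at the 75th percentile and 0.27 after quantile normalization, and its lead was -0.86 with the brightest reference and -0.23 at the 90th percentile.

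Array weights gave -1.33 for miR-142-5p in normal gland against the models, an F value of 2.50 for miR-155, -0.15 for miR-155 in MMTV-C-Myc and 0.12 for miR-223 in MMTV-Hras. With the 7 arrays of 3 digits as a block, miR-223 was -0.73 between the classes and 0.19 in MMTV-Wnt, and miR-155 -0.082 in MMTV-C-Myc and -0.29 in MMTV-Wnt. Without those arrays, the class difference of miR-223 was -0.73 and miR-155 in MMTV-Hras -0.23. With the model as a random block, miR-150 was 1.30 and miR-223 -0.94, both no longer called, and 149 miRNAs were called. With model means as samples they were 1.29 and -0.96, also not called (adjusted p = 0.143 and 0.307 in limma), and 144. In FVB models alone miR-150 was 1.25 between the classes and miR-142-5p -1.37 in normal gland against the models.

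Without C3TAg the class difference of miR-223 was -0.31, and -0.64 without MMTV-Hras. Without p53-/- that of miR-150 was 0.96 (adjusted p = 0.0558 in limma). Normal gland against the other models gave -1.21 for miR-142-5p without C3TAg and -1.23 without p53-/-. With Brca1-/-p53+/- as the only basal model the class differences were -1.36 for miR-142-5p, 0.68 for miR-150, -0.14 for miR-155 and -0.76 for miR-223, with 147 calls. Testing only miRNAs at or above the median signal left 97 calls between classes, 95 in normal gland and 164 in the F test, from 236, 218 and 327. A t-test called 187 miRNAs between the classes at a threshold of 0.001 and 236 after Benjamini-Hochberg. In normal gland against all tumors pooled it called 29 and 84, where limma called 85. The study gives that threshold for its model-specific miRNAs. Its class miRNAs were chosen by significance analysis of microarrays (SAM), which was not run here.

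Same-numbered arrays of different groups did not deviate together (mean correlation of deviations 0.028, others -0.006). With the replicate number as a block, the class differences were -2.13 for miR-142-5p and 1.30 for miR-150, that of normal gland for miR-150 was 3.22, and 231 and 223 miRNAs were called. The block turned miR-155 in MMTV-C-Myc (-0.066) and took the call of miR-223 in p53-/- (-1.003).

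Leaving out 1 array at a time, the class difference of miR-223 ran from -0.93 to -0.69 and that of miR-142-5p in normal gland against the models from -1.04 to -0.85. It was called without Brca1-/-p53+/- replicate 5 (adjusted p = 0.0319 in limma) and without MMTV-PymT replicate 5 (adjusted p = 0.0344). Against normal gland, miR-155 ran from -0.34 to 0.058 in Brca1-/-p53+/-, -0.32 to 0.28 in MMTV-C-Myc, -0.22 to 0.74 in MMTV-Hras, -0.039 to 0.20 in MMTV-PymT and -0.23 to 0.52 in MMTV-Wnt. No other class or normal gland result changed its call when 1 array was left out.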
